A study of Mus musculus with 8 samples.

Results

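Immediate early genes are genes that cells switch on within minutes of a stimulus, without making new protein first, and whose mRNAs are known for being degraded soon afterwards. The 10 transcripts described here are Fos, Jun, Junb, Jund, Egr1, Ier2, Atf3, Btg2, Myc and Zfp36. They were chosen by a list of Ensembl identifiers, with no measured value in the rule, and they are 10 of the 54838 genes in the deposited count tables. All 10 were found, and all 10 were among the 16716 genes with enough reads to be tested. Nothing in the counts measures how quickly a transcript is induced or lost, so the name of the group was not checked against the data.

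The libraries came from RNA immunoprecipitation sequencing (RIP-seq), in which a protein is captured from a lysate by an antibody on beads and the attached RNA is sequenced. Dissociated cortical cells of C57BL/6 mice at embryonic day 12.5 were used throughout. An antibody raised in rabbit against Exosc10 gave 4 libraries, and normal rabbit IgG gave 4 mock pull-downs, which measure RNA captured without a specific antibody. No genotype, drug or stimulus distinguishes the groups. Exosc10 is a 3′-to-5′ exoribonuclease of the RNA exosome, a complex that trims and degrades RNA mainly in the nucleus. The question was whether short-lived transcripts made up a larger or smaller part of the RNA captured with Exosc10 than with IgG. RNA input was not analysed here, so the values compare 1 capture with another and not with the abundance of a transcript in the cells.

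Library totals ran from 21731971 to 34506709 counts with Exosc10 and from 20967743 to 30199449 with IgG, and libraries numbered 1 were the shallowest of each group. Separate cultures or litters are not named in the labels, and the spread that the p-values rest on may therefore be purely technical. The files pair no other gene with a symbol, so markers of cortical cells, blood or vessels were not examined and the tissue label was not checked. Levels are given as CPM, read counts scaled to a common library size by the trimmed mean of M-values, and each is a share of its library. Every library pools many cells, so fewer cells with a transcript and less of it per cell cannot be told apart. CPM does not correct for transcript length, so levels are compared between pull-downs and not between genes. The adjusted p-values come from edgeR's quasi-likelihood test over all 16716 genes with Benjamini-Hochberg adjustment, and a gene was called at an adjusted p under 0.05.

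None of the 10 transcripts was called in the comparison of Exosc10 with IgG that took the libraries as unpaired. The count was 0 higher and 0 lower by edgeR's adjusted p, where 7.92% of all tested genes were called higher and 5.82% lower, 13.7% in all. At an unadjusted p under 0.05 in the same fit 3 members passed, Ier2, Jun and Zfp36, against 30.6% of all tested genes. Ier2 and Jun had the highest estimates in the Exosc10 pull-down, at 1.82-fold and 1.56-fold of IgG, and Zfp36 had the lowest, at 0.587-fold. With DESeq2 1 member passed, Ier2, against 20.3% of all genes. With limma-voom and sample weights 4 passed, Ier2 and Jun higher and Btg2 and Zfp36 lower, against 38.1% of all genes. Those weights were lowest for the libraries numbered 1, at 0.315 with Exosc10 and 0.296 with IgG. With library numbers as a block in edgeR 2 passed higher, Jun and Ier2, and 1 lower, Btg2, against 26.9% of all genes. The labels do not say whether equal numbers mark pairs. Across genes, deviations of each of the 8 libraries from its group mean correlated best with those of its own number in the other pull-down. Whether the libraries are paired is therefore not settled. The values of the Exosc10 and IgG libraries overlapped in all 10 members. Over all tested genes the groups did not overlap in 19.1%, and 10 members are too few to be set apart from that share.

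The members did not share a direction. Of the 10 estimates 5 were positive and 5 negative, from -0.77 to 0.86 on the log2 scale (Exosc10 over IgG). Their median was -0.12, beside -0.03 for all tested genes, whose interquartile range ran from -0.40 to 0.34. Inside that range lay 4 members, Fos, Jund, Atf3 and Myc. Summed over the 10 members, the level was 468 ± 66.9 CPM (SD, n = 4) with Exosc10, from 404 to 556. With IgG it was 441 ± 53.6 CPM (SD, n = 4), from 375 to 506, so the sums overlapped. The largest parts of both sums were Jun, Jund and Btg2. Their means were 148, 101 and 132 CPM with Exosc10 and 94.8, 95.5 and 178 CPM with IgG. The means of Jun and Btg2 thus moved the sum in opposite directions.

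**Figure D1:**
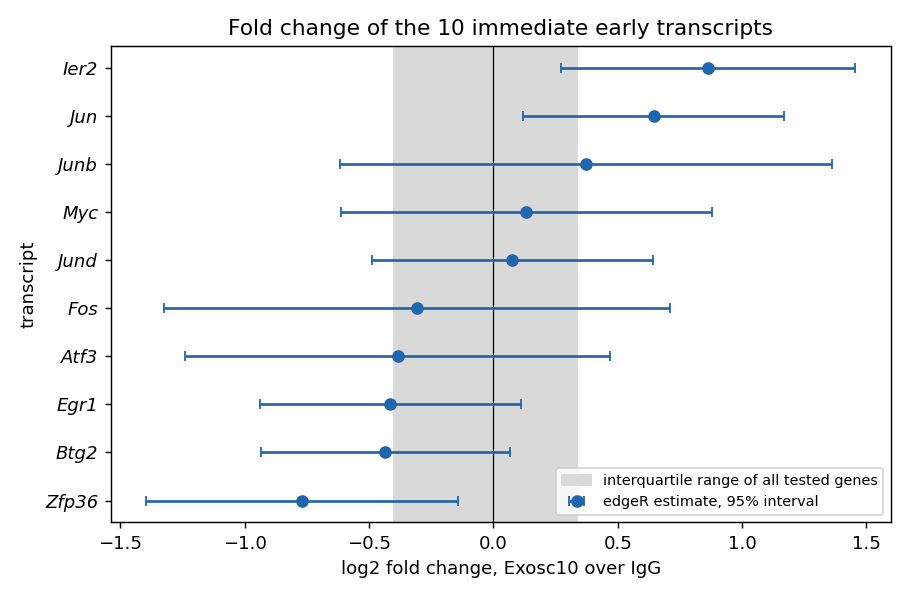
Log2 fold change of Exosc10 over IgG for each of the 10 transcripts (points, edgeR estimates from 4 libraries a group) with 95% confidence intervals (bars); the grey band, from -0.40 to 0.34, is the interquartile range of all 16716 tested genes. Intervals of Ier2, Jun and Zfp36 leave out 0 before adjustment for multiple testing, and none of the 10 passed after it.

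Sequence near the start of the genes was examined because many immediate early genes are known for carrying binding sites of serum response factor (the CArG box) or of CREB and ATF proteins near their promoters. The RefSeq promoter table, on assembly GRCm38.p6, held windows from 250 bases before to 50 bases after the start for 7 of the 10 members; Egr1, Ier2 and Myc had none. Both strands were searched for the CArG box, for TGACGTCA (the cAMP response element) and for TGANTCA (a loose form of the AP-1 site, with any base at N). The 2 matches are shown, in capitals with 8 flanking bases on each side on the strand of the gene. The first is a CArG box 58 bases before the start of Zfp36 (chr7:28379269-28379294, minus strand), and the second a cAMP response element 166 bases before the start of Btg2 (chr1:134079306-134079329, minus strand).
Zfp36: aggccgccCCATAAAAGGagaaagct
Btg2: cccaataaTGACGTCAgtgagcga
Of all 32851 windows in the table, 1.63% held the CArG box, 1.79% held TGACGTCA and 7.81% held TGANTCA. The AP-1 site was in 0 of the 7 member windows. A match describes these letters only, and pull-down counts do not measure promoters.

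Fos, the Jun proteins and Atf3 are basic leucine zipper proteins; Fos pairs with a Jun protein to form the transcription factor AP-1, and Atf3 is a stress-induced relative that can pair with Jun proteins. Jun (ENSMUSG00000052684, chromosome 4, 95049036 to 95052222 on GRCm38.p6) had the second highest estimate of the 10. Its level in Exosc10 libraries 1 to 4 was 197, 152, 135 and 108 CPM. In IgG libraries 1 to 4 it was 132, 109, 63.7 and 74.7 CPM. 3 Exosc10 libraries lay above every IgG library, and Exosc10 library 4 fell among the IgG values. The means were 148 ± 37.2 and 94.8 ± 31.3 CPM (SD, n = 4 each). On the log2 scale the difference was 0.64 ± 0.25 (SE), with a 95% interval of 0.12 to 1.17 and an edgeR adjusted p of 0.0930, so Jun did not pass. Without IgG library 1, the highest of the mock libraries for Jun, the log2 fold change was 0.85 and Jun was called (edgeR adjusted p = 0.0222), in a fit that called 23.7% of all genes. Without Exosc10 library 1, the highest of all for Jun, it was 0.49 (edgeR adjusted p = 0.167).

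The other Jun genes had estimates closer to 0. Jund (ENSMUSG00000071076, chromosome 8, 70697739 to 70700616), which encodes the Jun protein that quiescent cells typically express and is the least inducible of them, stood at 131, 103, 59.4 and 109 CPM in Exosc10 libraries 1 to 4. It stood at 57.8, 123, 84.6 and 117 CPM in IgG libraries 1 to 4. The ranges covered nearly the same values. Its log2 fold change was 0.08 ± 0.26 (SE, edgeR adjusted p = 0.876), and the 95% interval, 0.714-fold to 1.56-fold, left out a 2-fold difference either way. The sign of this small value turned to -0.07 without Exosc10 library 1 and to -0.094 without IgG library 1.

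Junb (ENSMUSG00000052837, chromosome 8, 84976909 to 84978748) was counted with 39 to 156 reads a library. Its Exosc10 levels in libraries 1 to 4 were 7.23, 2.22, 1.26 and 3.83 CPM, and its IgG levels were 3.14, 4.25, 2.02 and 1.74 CPM. Exosc10 library 1 was the highest of the 8 and Exosc10 library 3 the lowest, so the mock values lay inside the range of the specific pull-down. The estimated log2 difference was 0.37 ± 0.46 (SE), its 95% interval ran from -0.62 to 1.36, and the edgeR adjusted p was 0.625. Without Exosc10 library 1 it was -0.18.

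Fos (ENSMUSG00000021250, chromosome 12, 85473890 to 85477274) rested on 19 to 89 reads a library. Its level in Exosc10 libraries 1 to 4 was 1.85, 2.95, 0.614 and 0.761 CPM. In IgG libraries 1 to 4 it was 1.97, 2.20, 2.27 and 1.18 CPM. Exosc10 library 2 was above every mock library and Exosc10 libraries 3 and 4 were below every one. Its estimate of -0.31 ± 0.48 (log2, SE; edgeR adjusted p = 0.704) had a 95% interval of 0.399-fold to 1.63-fold. Without Exosc10 library 2 it was -0.84 and without Exosc10 library 3 it was -0.036, and neither passed.

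Atf3 (ENSMUSG00000026628, chromosome 1, 191170296 to 191183333) was similarly scarce, at 22 to 63 reads a library. Its Exosc10 levels ran from 0.841 to 1.84 CPM and its IgG levels from 0.908 to 2.33 CPM, and library 3 was the lowest of each group. Its log2 fold change of -0.38 ± 0.40 (SE) had an edgeR adjusted p of 0.551. For Fos, Atf3 and Junb, the 3 members with under 100 reads in some library, the 95% intervals reached past a 2-fold difference, so at this depth and spread a difference of that size could not be told from none.

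**Figure D2:**
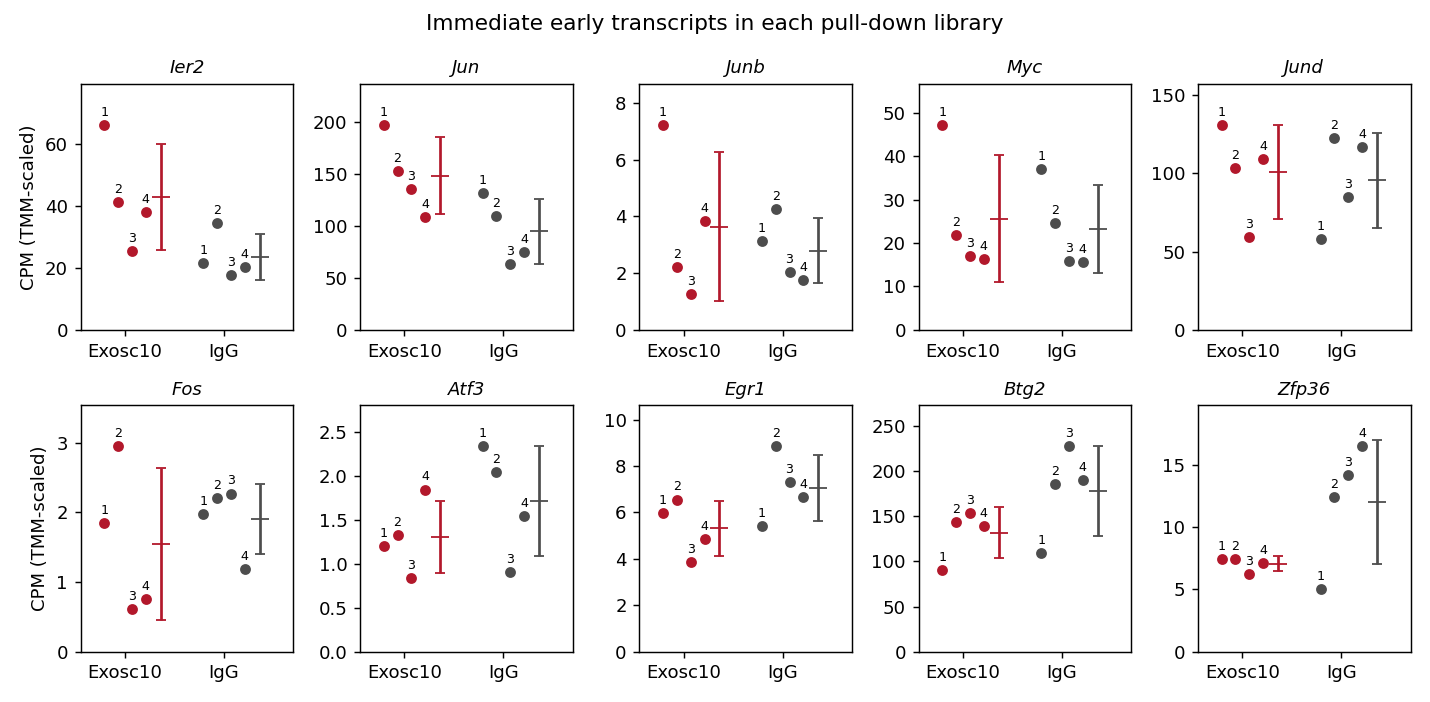
Level of each transcript in CPM (vertical axis from 0, own scale for each gene) in the 4 Exosc10 libraries (red) and the 4 IgG libraries (grey), with library numbers above the points; the horizontal dash and bar beside each group are its mean and SD. The 2 groups overlap in every panel: for Ier2 and Jun 3 Exosc10 libraries lie above all IgG libraries, and for Zfp36 the Exosc10 libraries, at 6.24 to 7.46 CPM, lie below IgG libraries 2 to 4 but above IgG library 1.

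Ier2 (ENSMUSG00000053560, chromosome 8, 84661331 to 84662852), a nuclear protein induced by growth factors, had the highest estimate of the group and came nearest to the threshold. Its level in Exosc10 libraries 1 to 4 was 66.4, 41.4, 25.4 and 38.2 CPM. In IgG libraries 1 to 4 it was 21.6, 34.5, 17.8 and 20.3 CPM. 3 Exosc10 libraries lay above every IgG library, and Exosc10 library 3 lay below IgG library 2 and above the other mock libraries. The Exosc10 mean was 42.9 ± 17.1 CPM and the IgG mean 23.6 ± 7.49 CPM (SD, n = 4 for either). The edgeR estimate, 0.86 ± 0.28 on the log2 scale (SE), had an interval at the 95% level from 0.27 to 1.45 and an adjusted p of 0.0522. Of all tested genes, 5.10% had a higher estimate. Ier2 was called without Exosc10 library 3, at a log2 fold change of 1.05 (edgeR adjusted p = 0.0288; 8.08% of all genes called), and without IgG library 2, at 1.11 (edgeR adjusted p = 0.0360; 7.45% of all genes called). These are the libraries that brought the groups into overlap. Without Exosc10 library 1, its highest, the estimate was 0.58 (edgeR adjusted p = 0.113), and without both libraries numbered 1 it was 0.53 (edgeR adjusted p = 0.0958). With DESeq2 its log2 fold change was 0.86 with an adjusted p of 0.0197.

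Ier2, Junb and Jund lie on chromosome 8, the first pair 314057 bases apart. Exosc10 library 1 was the highest of the 8 libraries for all 3, as it was for Jun and Myc. IgG library 2 was the highest mock library for all 3, as it was for Egr1.

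Egr1 and Myc encode transcription factors of other classes, a zinc finger protein that responds to growth factors and neuronal activity and a basic helix-loop-helix protein that drives growth and proliferation. Egr1 (ENSMUSG00000038418, chromosome 18, 34861207 to 34864956) stood at 5.98, 6.56, 3.85 and 4.86 CPM in Exosc10 libraries 1 to 4 and at 5.43, 8.85, 7.31 and 6.67 CPM in IgG libraries 1 to 4. Exosc10 libraries 3 and 4 lay below every mock library, and the others lay among them. The difference of -0.41 ± 0.24 (log2, SE), with a 95% interval of -0.94 to 0.11, had an edgeR adjusted p of 0.271.

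Myc (ENSMUSG00000022346, chromosome 15, 61985341 to 61990361) stood apart in the libraries numbered 1 of both pull-downs. It stood at 47.2 CPM in Exosc10 library 1, against 21.8, 16.9 and 16.4 CPM in libraries 2 to 4. In IgG library 1 it stood at 37.1 CPM, against 24.7, 15.8 and 15.5 CPM. Library 1 thus held 2.57 times the mean of the other Exosc10 libraries and 1.99 times the mean of the other IgG libraries. Between pull-downs the log2 difference was 0.13 ± 0.35 (SE), its 95% interval was -0.61 to 0.88, and its edgeR adjusted p was 0.834. It was -0.33 without Exosc10 library 1, -0.01 without IgG library 3 and -0.02 without IgG library 4, so the estimate has no settled sign.

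Btg2 and Zfp36 act on RNA or on the cell cycle rather than as DNA-binding factors. Btg2 is an antiproliferative protein that binds the CCR4-NOT deadenylase complex and in the embryonic cortex marks progenitors about to form neurons. Btg2 (ENSMUSG00000020423, chromosome 1, 134074865 to 134079155) stood at 90.1, 143, 154 and 140 CPM in Exosc10 libraries 1 to 4. It stood at 109, 185, 227 and 190 CPM in IgG libraries 1 to 4. Library 1 was the lowest of each group, at 0.619 and 0.542 times the mean of the other libraries, and IgG library 1 alone among the mock libraries lay below Exosc10 libraries 2 to 4. The means were 132 ± 28.4 and 178 ± 49.7 CPM (SD, n = 4 each). The estimate was -0.43 ± 0.23 (log2, SE), with a 95% interval of -0.93 to 0.07 and an edgeR adjusted p of 0.226. Without IgG library 1 it was -0.60 and Btg2 was called (edgeR adjusted p = 0.0409), as Jun was in the same fit. It was -0.29 without Exosc10 library 1 (edgeR adjusted p = 0.402) and also -0.29 without IgG library 3 (edgeR adjusted p = 0.500).

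Zfp36, also called tristetraprolin, binds AU-rich elements in the mRNAs of many immediate early and cytokine genes and brings about their deadenylation and decay. Zfp36 (ENSMUSG00000044786, chromosome 7, 28376784 to 28379228), whose CArG box is printed above, had the lowest estimate of the group. Its level was 7.46, 7.45, 6.24 and 7.14 CPM in Exosc10 libraries 1 to 4. In IgG libraries 1 to 4 it was 5.02, 12.4, 14.2 and 16.5 CPM. The Exosc10 libraries lay close together, below 3 of the mock libraries and above IgG library 1. The means were 7.07 ± 0.574 and 12.0 ± 4.95 CPM (SD, n = 4 each). The log2 fold change was -0.77 ± 0.29 (SE; 95% interval -1.40 to -0.14) with an edgeR adjusted p of 0.0936. Without IgG library 1 it was -1.02 and Zfp36 was called (edgeR adjusted p = 0.00331), again in the fit that called 23.7% of all genes. Without IgG library 4, its highest, it was -0.58 (edgeR adjusted p = 0.260).

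The members varied widely between libraries of the same pull-down. Over the 20 combinations of gene and pull-down, the coefficient of variation (the SD as a percent of the mean) ran from 8.12% for Zfp36 with Exosc10 to 72.1% for Junb with Exosc10. The variation that counting alone would give ran from 1.47% to 16.1%, and the observed spread was the larger in all 20. The coefficients of the 2 groups were also pooled for each gene, as the square root of the mean of their squares. The median pooled coefficient was 32.5% for the members and 23.6% for all tested genes, and 9 of the 10 members lay above that second value. Junb, Fos and Myc each varied more than 90% of all tested genes. Scarce genes vary more by counting, and the part of abundance in this comparison was not tested.

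Some libraries were high or low for most members at once, and whether this was particular to the members was not tested. In Exosc10 libraries 1 and 2, 8 of the 10 members lay above their group mean, with median deviations of 0.44 and 0.08. In Exosc10 library 3 all members but Btg2 lay under that mean of log2 CPM, with a median deviation of -0.50, and in IgG library 2 all 10 lay above it, with a median of 0.30. In the libraries numbered 1, Jun and Myc were high in both pull-downs and Btg2 was low in both, while Jund and Zfp36 were low only in the IgG library. Jun in library 1 was 1.49 times the mean of the other Exosc10 libraries and 1.60 times that of the other IgG libraries. Jund was 1.44 times that mean with Exosc10 and 0.535 times with IgG, and Zfp36 was 1.07 and 0.350 times. The libraries numbered 1 were also the shallowest of each group, and over all tested genes they differed most from the others of their group. Chi-square per gene, a measure of mismatch between 2 libraries, was 110 to 170 in pairs with a library numbered 1. In the other pairs within a group it was 19.5 to 65.3. The part of depth or of this wider difference in the ratios was not tested. Of the 10 members' differences between pull-downs, only that of Ier2 was called after all libraries were thinned to 20967743 counts, at 0.87 on the log2 scale (edgeR adjusted p = 0.0434), where 13.9% of all genes were called.

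**Figure D3:**
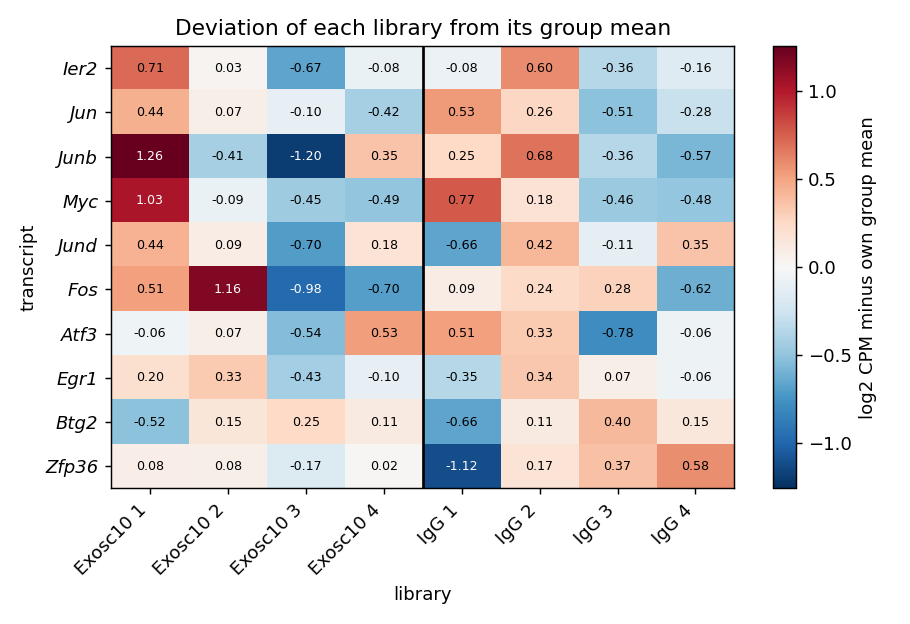
Log2 CPM of each transcript (rows, ordered by fold change) in each library (columns) minus the mean of its own pull-down group; red is above and blue below the group mean, and the value is printed in each cell. Library 1 of both groups is high for Jun and Myc and low for Btg2, and Exosc10 library 3 is below its group mean for every transcript except Btg2.

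Across the alternatives in scaling, filtering, test and libraries, 7 members kept the sign of their estimate in every fit that tested them: Ier2 and Jun on the positive side, and Fos, Atf3, Egr1, Btg2 and Zfp36 on the negative side. Junb, Jund and Myc changed sign in at least 1 fit. Ier2, Jun, Btg2 and Zfp36 were called in at least 1 alternative, and the other 6 members in none. A member was called in 9 of the 18 alternatives, which called 7.45% to 38.1% of all genes, and no member was called in the other 9, which called 5.20% to 20.5%. Ier2 ran from 0.53 to 1.11, Jun from 0.49 to 0.85, Btg2 from -0.60 to -0.29 and Zfp36 from -1.05 to -0.58 on the log2 scale. The 95% intervals of Jund, Egr1, Myc and Btg2 lay within a 2-fold difference either way, and those of the other 6 members reached past it.

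**Figure D4:**
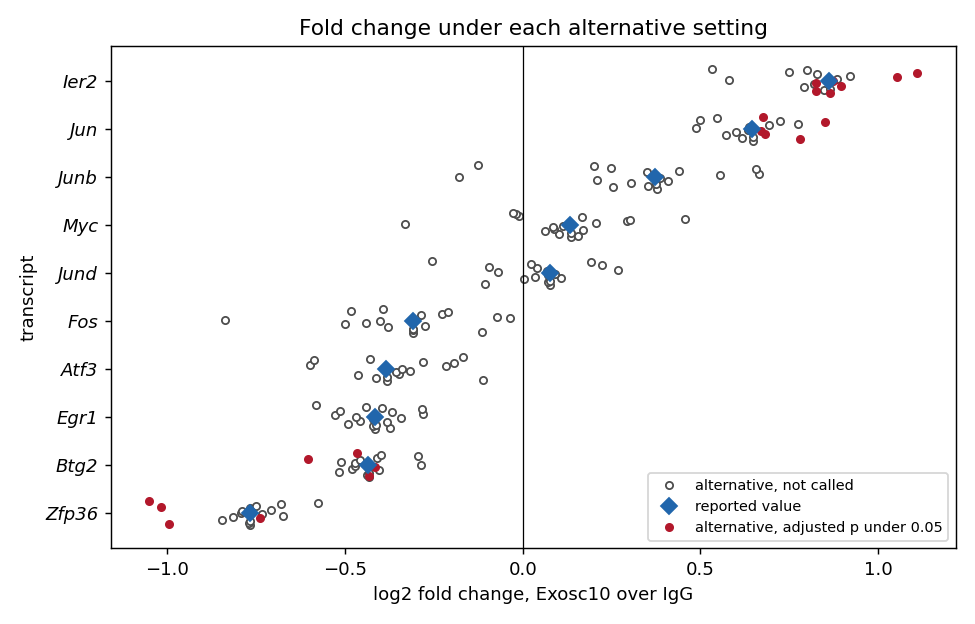
Log2 fold change of Exosc10 over IgG for each transcript as reported (blue diamonds) and under each alternative (circles, filled red where the adjusted p was under 0.05); vertical offsets within a row only separate the points. Filled circles occur for Ier2, Jun, Btg2 and Zfp36, and the points of Junb, Myc and Jund lie on both sides of 0.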

How the data were processed

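Read counts per Ensembl gene were deposited by the authors as 1 file for each of the 8 libraries, without normalization. Per the submitters' processing notes the build was mm10 (the UCSC name of GRCm38), and featureCounts 1.5.0-p1, STAR 2.5.2a and bcl2fastq 2.17.1.14 were used. Annotation release, strand setting and treatment of multi-mapping or duplicate reads are not given in the sources used here. RefSeq lists 0 genes that overlap a member's span, but Junos lies 95 bases from Jun and Iqcn 705 bases from Jund. The bounds of the Ensembl genes used for counting were not compared with RefSeq. The 10 members, the lists and the alternatives were chosen with earlier results of these data known. Symbols came with the member list. All members are named. The RefSeq tables match no Ensembl ID, so the other gene lists, cell type markers and genes of like pattern were not used.

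Counts were fitted with edgeR 4.0.16 in R 4.3.3: filterByExpr (minimum count 10, total 15), TMM scaling, and a quasi-likelihood test with no covariate. The SE is the size of the log2 fold change divided by the square root of F. Log2 CPM used a prior count of 2. Alternatives used DESeq2 1.42.0 and limma 3.58.1. The fit was tested on simulated data, but its ability to find differences as small as those of the members was not examined. Within groups, the lowest chi-square per gene between 2 libraries was 19.5, far above sampling noise. Intervals of counting error assume independent reads.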

Additional observations from a re-analysis of the deposited data

How the results depend on the processing

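Of the 10 members 0 were called higher and 0 lower, and the counts stayed at 0 with library totals, median ratios, the upper quartile and a mean of at least 5 CPM. Members called higher numbered 1 with DESeq2, 2 with limma-voom, 2 with no filter, 1 after thinning and 1 without both libraries numbered 1; members called lower numbered 2 with limma-voom, 1 with no filter and 2 without both libraries numbered 1. Of all genes, 20.3% were called with DESeq2, 38.1% with limma-voom, 9.02% with no filter, 13.9% after thinning and 32.2% without both libraries numbered 1. The share with no filter is over 30694 genes and stands for 2769 calls, against 2297 calls over 16716 genes in the reported fit. Without each library in turn, 0 to 1 were higher and 0 to 2 lower, where 5.20% to 23.7% of all genes were called. The 2 lower, Btg2 and Zfp36, were called without IgG library 1, in the fit that called 23.7%. With no filter the members called were Ier2 (0.90, edgeR adjusted p = 0.00121), Jun (0.68, 0.0196) and Zfp36 (-0.74, 0.0441), and the cause was not tested. Without both libraries numbered 1 they were Jun (0.68), Btg2 (-0.47) and Zfp36 (-1.05). The upper quartile changed the balance of calls over all genes to 6.13% higher and 8.19% lower. The median of the members was -0.12, and it ran from -0.31 to 0.12 without each library in turn and was 0.03 at a mean of at least 5 CPM, where Fos, Junb and Atf3 were not tested.

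Signs turned for Jund with limma-voom (-0.11), for Junb without Exosc10 library 1 (-0.18), for Jund without Exosc10 library 1 (-0.07) or IgG library 1 (-0.094), and for Myc without Exosc10 library 1 (-0.33), IgG library 3 (-0.01) or IgG library 4 (-0.02). Without both libraries numbered 1 the values were -0.13 for Junb, -0.25 for Jund and -0.027 for Myc. Without each library in turn Jund ran from -0.094 to 0.27, Junb from -0.18 to 0.67 and Myc from -0.33 to 0.46. No cause was examined for these turns, and none of the values was called.

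To see whether equal numbers pair libraries, deviations from the group mean were correlated across genes between the Exosc10 and the IgG library of each number, which gave 0.34, 0.095, 0.34 and 0.22 for numbers 1 to 4. As 1 lay under the 0.1 required, the reported fit took the libraries as unpaired, although all these correlations were positive. Each of the 8 libraries, however, had its highest correlation in the other group with its own number. The labels do not say what equal numbers mean, so whether the libraries are paired is not settled. With the replicate block 2 members were higher, Jun (0.67, edgeR adjusted p = 0.00550) and Ier2 (0.82, 0.00906), and 1 was lower, Btg2 (-0.41, 0.0356), while 14.9% of all genes were called higher and 12.0% lower.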
